A study of Mus musculus with 10 samples.

Results

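The 36 mouse genes described here encode NF-kappaB subunits and their inhibitors, chemokines, cytokines and other mediators of inflammation. They were chosen by name, as the rows of the deposited count table whose Entrez identifier maps to a listed symbol, and all 36 were found among its 24454 genes. Expression was measured by RNA sequencing in NMuMG/E9 cells, which are 1 subclone of the established mouse line NMuMG, grown from healthy mammary epithelium. All 4 groups carried siRNA at 20 nM and were collected on day 3 after transfection, so that no untransfected cells enter the comparisons. Control siRNA without TGFbeta (siCtr 0 d) had replicates 1 and 3, and siRNA against Irf1 without TGFbeta (siIrf1 0 d) had replicates 1, 2 and 3. Control siRNA with recombinant human TGFbeta1 at 2 ng/ml for 2 d (siCtr TGFbeta) had replicates 2 and 3, and siRNA against Irf1 with the same TGFbeta (siIrf1 TGFbeta) had replicates 1, 2 and 3. Irf1 encodes interferon regulatory factor 1, and TGFbeta drives epithelial-mesenchymal transition in NMuMG cells. The comparisons ask how the inflammatory genes respond to TGFbeta and to the siRNA against Irf1 in each state.

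NF-kappaB factors are dimers of Rel-domain proteins that inhibitors of the IkB family hold in the cytoplasm. Receptors for tumour necrosis factor and interleukin 1, and Toll-like receptors, switch on kinases that mark IkB for destruction, and the freed dimers bind kappaB sites in DNA. Their targets include chemokines, adhesion molecules and inhibitors of the pathway itself, among them Nfkbia and Tnfaip3. Epithelial cells use the secreted products to attract and instruct leukocytes.

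Totals were 27547649 to 67301646 counts per library, and 14475 to 15771 genes had at least 1 count. Levels are given as CPM, the depth-scaled counts that edgeR gives for each library, with libraries in the order of their replicate numbers. The labels do not say that the libraries came from separate cultures, so p-values measure the spread between these libraries, which may be technical. Irf1 itself stood at 148 and 129 CPM in siCtr 0 d against 56.4, 64.1 and 57.7 in siIrf1 0 d and, with TGFbeta, 106 and 112 in siCtr against 36.5, 46.2 and 41.0 in siIrf1. Every siIrf1 library lay below every siCtr library. Its log2 fold change was -1.22 ± 0.153 (SE) at 0 d (adjusted p = 0.000795, edgeR) and -1.40 ± 0.153 with TGFbeta (adjusted p = 0.000348). A GC index, the mean log2 deviation of the genes lowest in GC content minus that of the genes highest in it, separated the siRNAs. It was -1.35 and -0.60 in siCtr 0 d, -0.45 and -0.46 in siCtr TGFbeta, 0.19 to 0.92 in siIrf1 0 d, and 0.65, -0.39 and 0.76 in siIrf1 TGFbeta. With a trend on gene length and GC content removed, Irf1 at 0 d fell by 0.73 on the log2 scale, and the median of all genes moved from -0.03 to 0.16 at 0 d and from 0.03 to -0.08 in the interaction defined below. Other values after removal of this trend are given where it ends a call or moves a value by over 1.5 times. The epithelial genes Cdh1 (339 to 722 CPM), Krt8 (2010 to 5290) and Krt18 (3190 to 7670) were high in every library, whereas Epcam did not pass 0.0295 CPM and Cldn7 had no count. Of the 8 epithelial markers tested, 6 were called with TGFbeta in siCtr cells (3 up, 3 down). In these cells the mean of Krt19 went from 2440 to 307 CPM (950 in siIrf1 TGFbeta), that of Ocln from 25.1 to 10.7 and that of Cldn4 from 0.176 to 66.9. The macrophage marker Adgre1 was at 0 in every library, and the 14 leukocyte markers summed to 28.8 to 36.7 CPM in siCtr 0 d, 40.2 to 47.0 in siIrf1 0 d, 44.8 to 46.3 in siCtr TGFbeta and 43.4 to 59.3 in siIrf1 TGFbeta, of which Csf1r gave 25 to 56.1. Of the 7 leukocyte markers tested, siIrf1 at 0 d gave 1 call (14.3%, beside 31.8% of all genes), Ptprc (mean 0.0303 CPM against 0.779). With TGFbeta, siIrf1 gave 3 calls (42.9%, beside 18.0% of all genes), all down: Laptm5 (4.11 against 0.306), Cd68 (6.29 against 2.24) and Fcer1g (1.09 against 0.408). These 3 had risen with TGFbeta in siCtr cells, from means of 0, 1.98 and 0.0544 CPM. TGFbeta gave 4 leukocyte calls in siCtr cells (3 up, 1 down) and 3 in siIrf1 cells (2 up, 1 down). The shares were 57.1% and 42.9%, beside 32.5% and 21.3% of all genes. The endothelial gene Cdh5 had means of 0.0348 CPM in siCtr 0 d, 5.42 in siCtr TGFbeta and 1.64 in siIrf1 TGFbeta. Summed markers of fibroblasts went from 0.424 to 0.95 CPM at 0 d to 27.1 to 38.9 CPM with TGFbeta. The part of these markers in the results below was not tested, and in bulk RNA fewer cells of a type cannot be told apart from less RNA per cell.

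Of the 36 genes, 33 had enough counts to be tested among 13135 genes. Calls were made at an adjusted p under 0.05 (edgeR's quasi-likelihood test with Benjamini-Hochberg adjustment over all genes). With TGFbeta in siCtr cells 15 of the 33 were called (45.5%), against 32.5% of all genes. Of these, 7 rose and 8 fell, where 16.1% of all genes rose and 16.3% fell. In siIrf1 cells TGFbeta gave 17 calls (51.5%), 9 up and 8 down, against 21.3% of all genes (11.6% up and 9.71% down). At 0 d, siIrf1 against siCtr gave 18 calls (54.5%), 9 up and 9 down, against 31.8% of all genes (16.3% up and 15.5% down). With TGFbeta, siIrf1 against siCtr gave 8 calls (24.2%), 6 up and 2 down, against 18.0% of all genes (9.72% up and 8.28% down). The interaction, the difference between the TGFbeta effects in siIrf1 and siCtr cells, gave 4 calls (12.1%), 3 up and 1 down, against 4.12% of all genes (2.80% up and 1.32% down). The median log2 fold change of the 33 was 0.08, 0.34, -0.15, 0.13 and 0.50 in these comparisons in turn, beside 0.02, 0.02, -0.03, 0.05 and 0.03 for all genes tested. The comparisons share libraries (siCtr 0 d, for example, is the control of both TGFbeta and siIrf1), so their values stand side by side below and were not correlated.

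Single libraries weighed on some of these counts. At 0 d the count of siIrf1 calls was 9 without siCtr 0 d replicate 1 and 12 without siIrf1 0 d replicate 3. With TGFbeta it was 4 without either siCtr TGFbeta library and 5 without siIrf1 TGFbeta replicate 1. The interaction count was 0 without siCtr TGFbeta replicate 2, 1 without siCtr TGFbeta replicate 3 or siIrf1 0 d replicate 3, and 2 without siCtr 0 d replicate 1, siIrf1 0 d replicate 1 or siIrf1 TGFbeta replicate 1. All genes also gave fewer calls in each of these fits, so the falls were not particular to the members. Leaving out siIrf1 0 d replicate 3 gave 2245 all-gene calls at 0 d in place of 4175, and 279 in the interaction in place of 541. Leaving out siIrf1 TGFbeta replicate 1 gave 1570 with siIrf1 in TGFbeta in place of 2365. After removal of the length and GC trend the siIrf1 calls of members at 0 d were 12 up and 7 down in place of 9 and 9. Those of all genes were 3105 up and 1784 down in place of 2136 and 2039. In the interaction the same removal gave 592 genes up and 553 down in place of 368 and 173. Without siCtr 0 d replicate 3 the balance of all genes shifted in 3 comparisons: to 396 up and 1194 down in the interaction (members 2 up and 3 down), to 3042 up and 1513 down with siIrf1 at 0 d, and to 3402 up and 1714 down with TGFbeta in siCtr cells, in place of 2120 and 2147. Of the 62 calls of members over the 5 comparisons, 34 held under every alternative run that tested the gene. A stricter filter on low counts (2 CPM in 3 or more libraries) covered only 50 of the 62. It tested 29 members and left out Ccl7, Csf2, Saa3 and Tnf, whose calls among the 34 were not put to that run.

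**Figure D1:**
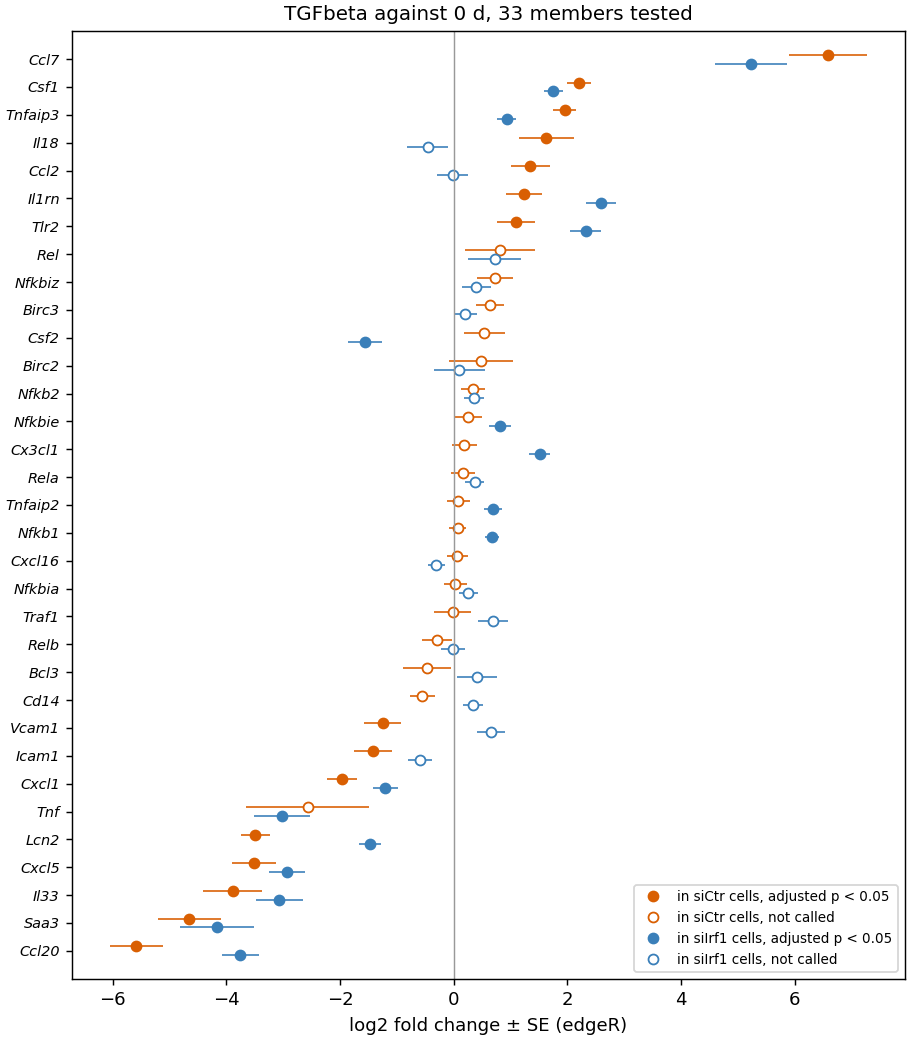
Log2 fold change with TGFbeta against 0 d (x axis, edgeR, bars are SE) for the 33 genes tested, in siCtr cells (orange) and siIrf1 cells (blue). Filled points are called. Ccl20 lies lowest in siCtr cells (-5.58) and Saa3 in siIrf1 cells (-4.16, where Ccl20 is at -3.75). Ccl7 lies highest in both (6.58 and 5.23), and Vcam1 and Csf2 are among the genes on opposite sides of 0.

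**Figure D2:**
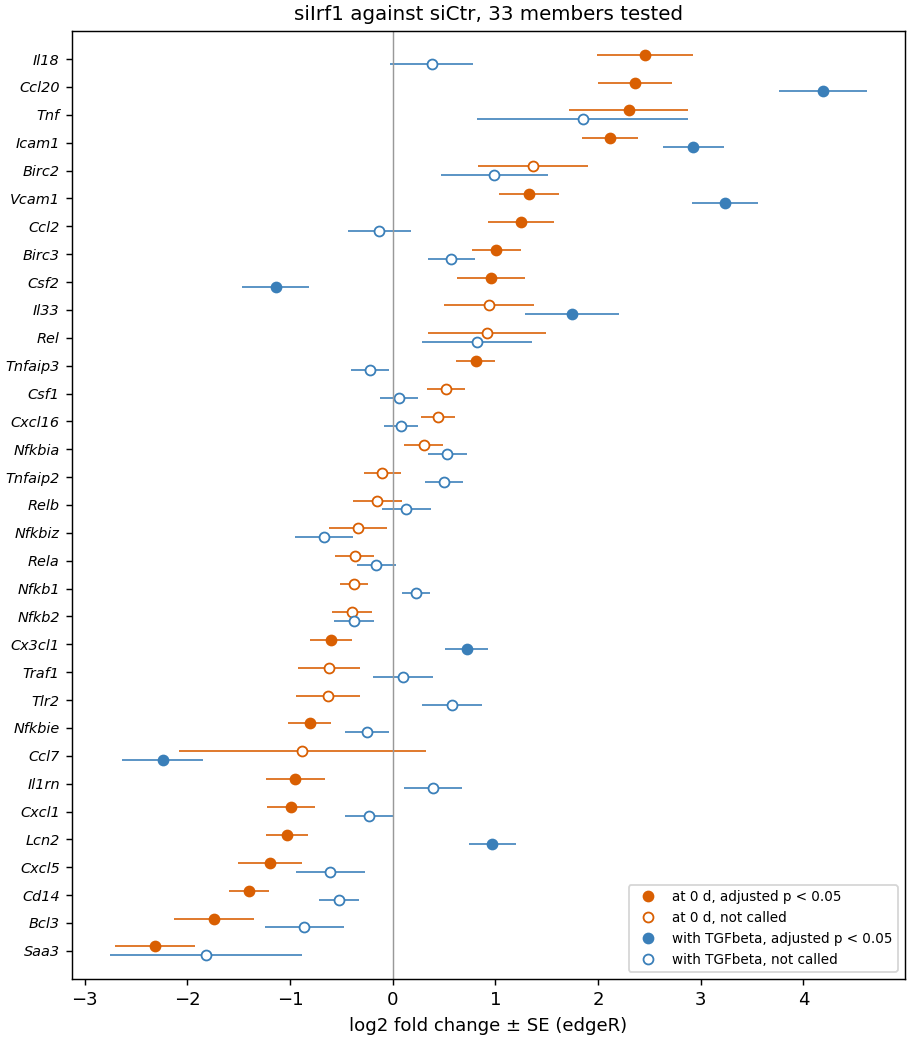
Log2 fold change of siIrf1 against siCtr (x axis, edgeR, bars are SE) for the same 33 genes, at 0 d (orange) and with TGFbeta (blue). Ccl20, Icam1 and Vcam1 lie to the right at both times, while Lcn2, Cx3cl1 and Csf2 are among the genes on opposite sides of 0.

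Promoter windows from RefSeq (GRCm38.p6, 250 bases before to 50 after a transcription start, the first transcribed base being position 1) were at hand for 26 of the 36 genes. A kappaB consensus was found on either strand in 12 of the 26, or 14 of their 33 windows, beside 8.46% of 32841 windows of all genes. The interferon response core (GAAA, any 2 bases, GAAA, on either strand) was found in 1 of the 26, Saa3, beside 3.44% of all windows, and the AP-1 site TGANTCA in 5, beside 7.81%. A match is a string of letters and not a measured site. The first 4 windows below are shown because they share a kappaB match while their genes responded in different ways: Ccl20 and Cxcl1 fell with TGFbeta and moved in opposite directions with siIrf1 at 0 d, and Tnfaip3 and Csf1 rose with TGFbeta. Saa3 is shown as the only window with the interferon response core, the kind of element that interferon regulatory factors bind. Capitals mark the kappaB match in the first 4 and the interferon response core in Saa3.
Ccl20 (chr1:83116516-83116815, plus strand, match from position -80): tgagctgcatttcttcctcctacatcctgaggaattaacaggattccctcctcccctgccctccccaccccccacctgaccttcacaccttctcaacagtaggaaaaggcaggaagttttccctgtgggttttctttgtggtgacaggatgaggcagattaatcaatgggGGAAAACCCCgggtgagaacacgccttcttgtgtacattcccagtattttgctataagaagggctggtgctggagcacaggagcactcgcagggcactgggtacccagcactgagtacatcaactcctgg
Cxcl1 (chr5:90890995-90891294, plus strand, overlapping matches from positions -71 and -70): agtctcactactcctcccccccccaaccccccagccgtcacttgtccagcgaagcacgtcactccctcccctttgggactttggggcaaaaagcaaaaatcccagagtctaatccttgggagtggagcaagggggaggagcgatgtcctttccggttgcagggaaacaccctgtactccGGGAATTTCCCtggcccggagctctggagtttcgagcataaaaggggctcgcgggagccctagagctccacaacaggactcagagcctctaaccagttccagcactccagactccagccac
Tnfaip3 (chr10:19015361-19015660, minus strand, matches from positions -125 and -12): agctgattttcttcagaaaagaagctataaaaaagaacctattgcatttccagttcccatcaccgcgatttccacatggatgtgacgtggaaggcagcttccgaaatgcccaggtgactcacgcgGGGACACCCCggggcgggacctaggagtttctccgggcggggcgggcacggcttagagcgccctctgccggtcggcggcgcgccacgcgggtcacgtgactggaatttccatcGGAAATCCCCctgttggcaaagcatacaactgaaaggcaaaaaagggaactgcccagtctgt
Csf1 (chr3:107760420-107760719, minus strand, match from position -154): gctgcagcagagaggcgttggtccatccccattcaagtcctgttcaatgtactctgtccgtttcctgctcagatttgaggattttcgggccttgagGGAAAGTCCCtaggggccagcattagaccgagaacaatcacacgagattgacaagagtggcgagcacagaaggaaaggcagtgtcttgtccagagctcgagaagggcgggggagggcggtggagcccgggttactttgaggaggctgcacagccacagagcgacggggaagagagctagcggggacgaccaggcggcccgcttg
Saa3 (chr7:46715627-46715926, minus strand, match from position -125): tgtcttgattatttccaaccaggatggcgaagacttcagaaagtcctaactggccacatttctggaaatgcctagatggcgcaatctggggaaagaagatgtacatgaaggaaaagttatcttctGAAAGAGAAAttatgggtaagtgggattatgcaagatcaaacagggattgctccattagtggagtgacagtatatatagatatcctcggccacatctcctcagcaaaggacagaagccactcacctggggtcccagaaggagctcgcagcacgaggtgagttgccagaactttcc

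Among the chemokines, Ccl20 had the widest span. Ccl20, which attracts cells bearing the receptor Ccr6, stood at 24.9 and 53.8 CPM in siCtr 0 d against 218, 171 and 218 in siIrf1 0 d and, with TGFbeta, 0.782 and 0.866 in siCtr against 12.8, 11.7 and 20.7 in siIrf1. No 2 groups overlapped: siIrf1 0 d was highest, siCtr TGFbeta lowest, and siIrf1 TGFbeta stayed under both siCtr 0 d libraries. With TGFbeta it fell in siCtr cells (log2 fold change -5.58 ± 0.461, adjusted p = 1.69e-05, edgeR) and in siIrf1 cells (-3.75 ± 0.327, adjusted p = 3.28e-05). With siIrf1 it rose at 0 d (2.36 ± 0.360, adjusted p = 0.00183) and with TGFbeta (4.19 ± 0.428, adjusted p = 0.000279). The 0 d value was 1.03 after removal of the length and GC trend and stayed called. The interaction was 1.83 ± 0.510 and did not pass (adjusted p = 0.0842), but it passed without siCtr 0 d replicate 1 (2.25), with DESeq2 (1.83) and with the trend removed (2.46). Without siCtr 0 d replicate 3 it was 1.06 and did not pass.

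**Figure D3:**
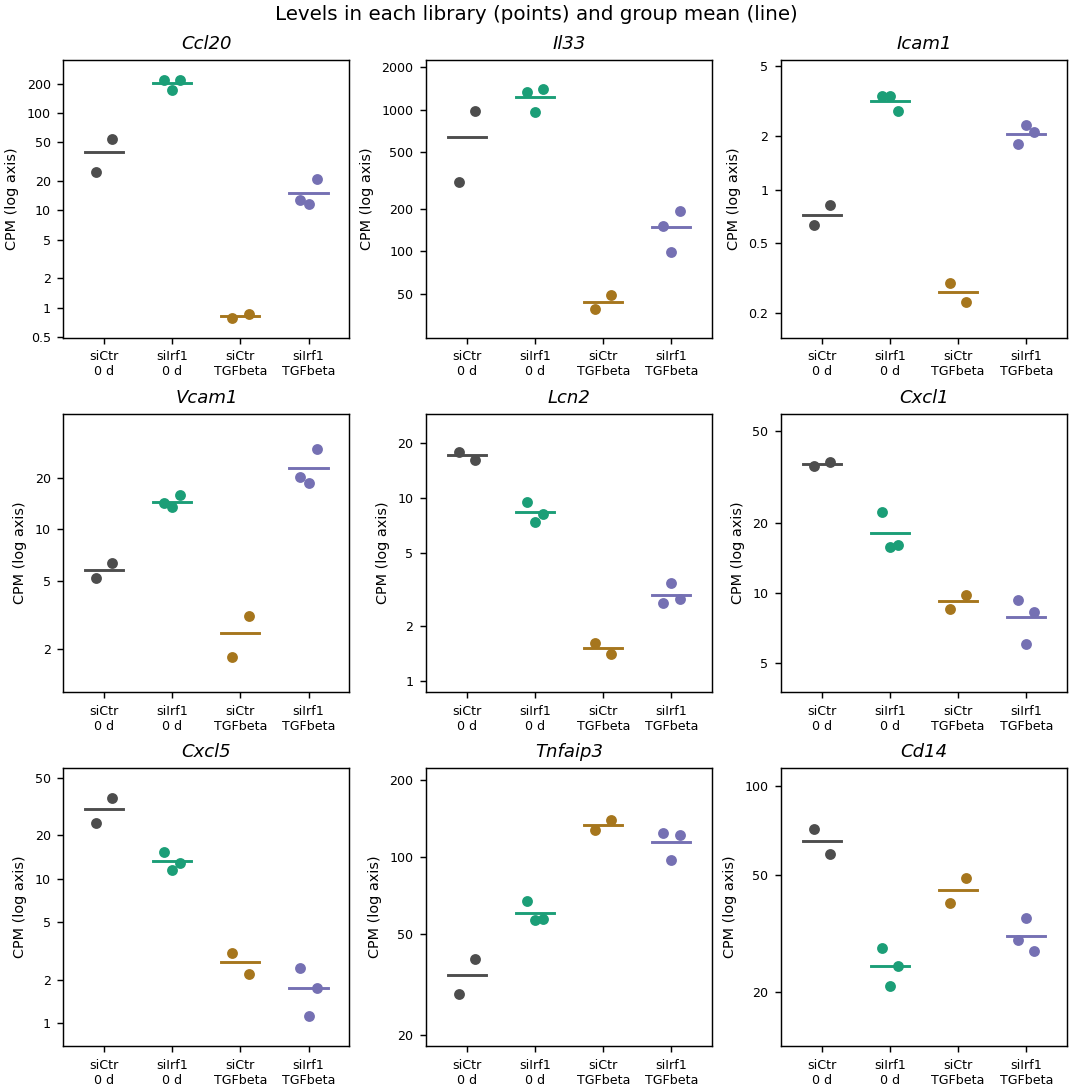
CPM of 9 genes in each library (y axis, log scale) by group (x axis), points being libraries and lines group means. Ccl20 spans 0.782 to 218 CPM, and Icam1 and Vcam1 are higher in every siIrf1 library than in either siCtr library of the same TGFbeta state.

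Cxcl1 and Cxcl5 are ELR-type chemokines that attract neutrophils, and both lie on chromosome 5 (GRCm38.p6, Cxcl5 at 90759298 to 90761625 and Cxcl1 at 90891245 to 90893121). Cxcl1 stood at 35.3 and 36.8 CPM in siCtr 0 d against 22.3, 15.9 and 16.2 in siIrf1 0 d and, with TGFbeta, 8.60 and 9.89 in siCtr against 9.33, 6.04 and 8.34 in siIrf1. Cxcl5 stood at 24.4 and 36.3 CPM in siCtr 0 d against 15.3, 11.4 and 12.9 in siIrf1 0 d and, with TGFbeta, 3.05 and 2.20 in siCtr against 2.42, 1.11 and 1.75 in siIrf1. For both genes the order was siCtr 0 d, then siIrf1 0 d, then the TGFbeta groups, which overlapped each other. Cxcl1 fell with TGFbeta in siCtr cells (-1.97 ± 0.267, adjusted p = 0.000345, edgeR) and siIrf1 cells (-1.20 ± 0.214, adjusted p = 0.00254), and with siIrf1 at 0 d (-0.99 ± 0.231, adjusted p = 0.0106). Cxcl5 fell with TGFbeta in siCtr cells (-3.52 ± 0.386, adjusted p = 9.29e-05) and siIrf1 cells (-2.93 ± 0.313, adjusted p = 0.000101). With siIrf1 at 0 d it fell as well (-1.20 ± 0.312, adjusted p = 0.0168), a call that was lost without siCtr 0 d replicate 3 (-0.82) or siIrf1 0 d replicate 3 (-1.19) and that was -2.25 after removal of the trend. With TGFbeta the siIrf1 value of Cxcl5 was -0.61 ± 0.337 (adjusted p = 0.26), and it passed with the trend removed (-1.19). It was -0.40 without siCtr TGFbeta replicate 2 and -0.34 without siIrf1 TGFbeta replicate 2, not called in either. Cxcl2, the neighbouring ELR chemokine at 90903899 to 90905938, had 1, 5, 0 and 2 counts in the 4 groups (siCtr and siIrf1 at 0 d, then both with TGFbeta) and was not tested.

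Ccl2 and Ccl7 attract monocytes and lie side by side on chromosome 11 (Ccl2 at 82035577 to 82037452 and Ccl7 at 82045712 to 82047525). Ccl2 stood at 48.4 and 98.6 CPM in siCtr 0 d against 201, 138 and 184 in siIrf1 0 d and, with TGFbeta, 213 and 162 in siCtr against 191, 130 and 193 in siIrf1. The siCtr 0 d libraries were the lowest, and the other 3 groups overlapped. It rose in siCtr cells with TGFbeta (1.35 ± 0.341, adjusted p = 0.0132, edgeR) and with siIrf1 at 0 d (1.25 ± 0.319, adjusted p = 0.0166). The TGFbeta call was lost without replicate 1 of siCtr 0 d (0.97) or replicate 2 of siCtr TGFbeta (1.22) and in a fit of the 2 groups alone, and it was 2.08 without siCtr 0 d replicate 3. The siIrf1 call was lost without siCtr 0 d replicate 1 (0.81), siIrf1 0 d replicate 1 (1.13) or siIrf1 0 d replicate 3 (1.20). It was 1.92 without siCtr 0 d replicate 3 and 0.75 after removal of the trend. The siIrf1 effect with TGFbeta was -0.13 ± 0.305 (adjusted p = 0.819), or -0.34 with the trend removed, and the interaction -1.38 ± 0.435 (adjusted p = 0.126). The interaction passed without siCtr 0 d replicate 3 (-2.10), with DESeq2 (-1.39) and with the trend removed (-1.09).

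Ccl7 was nearly absent without TGFbeta, at 0 and 0.0909 CPM in siCtr 0 d against 0, 0.0452 and 0.0264 in siIrf1 0 d, and stood at 5.25 and 5.10 with TGFbeta in siCtr against 1.54, 0.752 and 1.05 in siIrf1. The groups without TGFbeta held 3 counts each, those of siCtr all in replicate 3 (without which the fitted log2 value went from 6.58 to 10.73), so the rise is given as a ratio of levels with its exact 95% interval, which covers counting error only. TGFbeta raised Ccl7 by a ratio of 101 (34.4 to 493) in siCtr cells (435 counts, adjusted p = 6.61e-05, edgeR) and 38.7 (13.0 to 190) in siIrf1 cells (139 counts, adjusted p = 0.000235). With TGFbeta present every siIrf1 library lay below both siCtr libraries (log2 fold change -2.24 ± 0.394, adjusted p = 0.00434).

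Cx3cl1, a membrane-bound chemokine whose receptor is Cx3cr1, stood at 31.9 and 33.3 CPM in siCtr 0 d against 17.8, 27.1 and 19.5 in siIrf1 0 d and, with TGFbeta, 40.5 and 34.0 in siCtr against 54.6, 67.2 and 61.9 in siIrf1. It was thus lowest in siIrf1 0 d and highest in siIrf1 TGFbeta, with no overlap between any 2 groups. TGFbeta raised it in siIrf1 cells (1.51 ± 0.189, adjusted p = 0.000266, edgeR), while the value in siCtr cells was 0.19 ± 0.227 (adjusted p = 0.536), or 0.38 with the trend removed. The difference between these effects passed (1.32 ± 0.294, adjusted p = 0.0356). With siIrf1 it fell at 0 d (-0.60 ± 0.205, adjusted p = 0.0485) and rose with TGFbeta (0.72 ± 0.211, adjusted p = 0.0400). The 0 d call was lost without any library other than the replicate 2 libraries of siIrf1 0 d and siIrf1 TGFbeta (-0.64 to -0.48), in several other fits, and changed direction after removal of the trend (0.05). The call with TGFbeta was lost without any library other than siIrf1 0 d replicates 1 and 2 (0.55 to 0.80). The interaction was lost without any library other than siIrf1 0 d replicate 2 and siIrf1 TGFbeta replicate 2 (1.13 to 1.39).

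Cxcl16, a chemokine and scavenger receptor, was steady at 14.6 to 21.6 CPM over the 10 libraries and was not called. Ccl5 did not pass 0.148 CPM in any library and was not tested. Chemokine receptors were scarce: of 16 listed only 3 had enough counts to be tested (Ccr7, Ccrl2 and Ackr3), and the receptors of Ccl2 (Ccr2), Ccl20 (Ccr6) and Cxcl1 (Cxcr2) did not pass 0.112 CPM in any library. TGFbeta gave 3 calls in this list in siCtr cells and 3 in siIrf1 cells (1 up and 2 down each), siIrf1 gave 2 with TGFbeta (1 up, 1 down), and siIrf1 at 0 d and the interaction gave 0 each by edgeR, 1 each at an unadjusted p under 0.05, and 1 and 0 by DESeq2. With only 3 genes tested, the calls with TGFbeta in siCtr and siIrf1 cells were 100%, beside 32.5% and 21.3% of all genes. Those with siIrf1 in TGFbeta were 66.7%, beside 18.0%.

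Per kilobase of the gene length in the deposited table, Il33 was the most abundant of the 36 genes without TGFbeta, at a mean of 248 CPM per kb in siCtr 0 d (119 and 377), while in siIrf1 0 d it reached 477 (372 to 543). Ccl2 led with TGFbeta, at 233 in siCtr (202 and 264) and 213 in siIrf1 (162 to 240), followed by Csf1 at 129 and 135. In siIrf1 0 d Ccl20 was the next after Il33, at 252 (213 to 272), a range that overlapped that of Ccl2 (171 to 249). In siCtr 0 d Rela, Ccl20 and Nfkb1 were close together at 50.6, 49.1 and 46.6, and the Ccl20 libraries (31.1 and 67.1) spanned those of the others.

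Il33, an alarmin of barrier cells that is read by the receptor Il1rl1, stood at 310 and 982 CPM in siCtr 0 d against 1340, 969 and 1410 in siIrf1 0 d and, with TGFbeta, 38.9 and 48.6 in siCtr against 150, 98.2 and 194 in siIrf1. The siCtr 0 d libraries lay apart from each other and the higher of them overlapped siIrf1 0 d, whereas both TGFbeta groups lay below both 0 d groups. It fell with TGFbeta in siCtr cells (-3.89 ± 0.526, adjusted p = 0.000384, edgeR) and in siIrf1 cells (-3.07 ± 0.414, adjusted p = 0.000495). With TGFbeta present it was higher with siIrf1 (1.75 ± 0.458, adjusted p = 0.0256), a call lost without siCtr TGFbeta replicate 2 (1.54) or 3 (1.88), without siIrf1 TGFbeta replicate 1 (1.74) or 3 (1.51), and with no filter on low counts (1.70). At 0 d the value was 0.94 ± 0.440 (adjusted p = 0.126), which passed without siCtr 0 d replicate 3 (2.07) and with the replicate block (1.23). It was 0.33 without siCtr 0 d replicate 1 and 0.17 with the trend removed. The interaction was 0.81 ± 0.607 (adjusted p = 0.513), and without siCtr 0 d replicate 3 it changed direction (-0.37). It passed without both siCtr 0 d replicate 1 and siIrf1 TGFbeta replicate 2 (1.59).

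Il18 and Il1rn belong to the interleukin 1 family, Il18 as a cytokine released after cleavage and Il1rn as the antagonist of the interleukin 1 receptor. Il18 stood at 0.785 and 0.667 CPM in siCtr 0 d against 4.90, 2.90 and 4.25 in siIrf1 0 d and, with TGFbeta, 2.72 and 1.73 in siCtr against 3.04, 1.62 and 4.18 in siIrf1. The siCtr 0 d libraries were the lowest, and the TGFbeta groups overlapped each other. It rose with siIrf1 at 0 d (2.46 ± 0.466, adjusted p = 0.00458, edgeR) and with TGFbeta in siCtr cells (1.63 ± 0.489, adjusted p = 0.0283). The TGFbeta call was lost without siCtr 0 d replicate 1 (1.79) or 3 (1.63) or siCtr TGFbeta replicate 2 (1.35). The interaction of -2.09 ± 0.603 did not pass (adjusted p = 0.0965) except with DESeq2 (-2.10).

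Il1rn stood at 6.68 and 5.31 CPM in siCtr 0 d against 4.52, 2.33 and 2.48 in siIrf1 0 d and, with TGFbeta, 13.2 and 15.1 in siCtr against 19.9, 18.9 and 17.0 in siIrf1. No 2 groups overlapped, and siIrf1 had the lowest libraries without TGFbeta and the highest with it. TGFbeta raised it in siCtr cells (1.24 ± 0.316, adjusted p = 0.0132, edgeR) and siIrf1 cells (2.59 ± 0.270, adjusted p = 7.89e-05). The siCtr call was lost without siCtr TGFbeta replicate 3 (1.22) and after removal of the trend (0.77). With siIrf1 at 0 d it fell (-0.95 ± 0.289, adjusted p = 0.0313). That call was lost without siCtr 0 d replicate 1 (-0.79), siIrf1 0 d replicate 2 (-0.78) or 3 (-0.81), or siCtr TGFbeta replicate 2 (-0.91) or 3 (-0.92), and it was -2.01 after removal of the trend. The interaction of 1.34 ± 0.407 did not pass (adjusted p = 0.109) but passed without siIrf1 0 d replicate 1 (1.71), with DESeq2 (1.33) and with the trend removed (1.94).

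Csf1 is the growth factor of macrophages, and its receptor Csf1r was found at 25 to 56.1 CPM in the same cells. Csf1 stood at 120 and 128 CPM in siCtr 0 d against 157, 217 and 158 in siIrf1 0 d and, with TGFbeta, 573 and 571 in siCtr against 531, 564 and 697 in siIrf1. All TGFbeta libraries lay above all 0 d libraries, and the 2 TGFbeta groups overlapped. TGFbeta raised it in siCtr cells (2.21 ± 0.208, adjusted p = 3.07e-05, edgeR) and siIrf1 cells (1.75 ± 0.167, adjusted p = 4.45e-05). With siIrf1 at 0 d the value was 0.52 ± 0.184 (adjusted p = 0.0551), and it passed with DESeq2 (0.52), with the trend removed (0.99) and without siIrf1 TGFbeta replicate 2 (0.52) or 3 (0.52).

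Csf2, the granulocyte and macrophage growth factor, was low, at 0.510 and 0.637 CPM in siCtr 0 d against 1.41, 0.927 and 1.06 in siIrf1 0 d and, with TGFbeta, 0.930 and 0.733 in siCtr against 0.325, 0.347 and 0.481 in siIrf1. The siIrf1 0 d libraries were the highest, save that replicate 2 lay just under siCtr TGFbeta replicate 2, and the siIrf1 TGFbeta libraries were the lowest. TGFbeta lowered it in siIrf1 cells (-1.56 ± 0.293, adjusted p = 0.00335, edgeR), while the value in siCtr cells was 0.54 ± 0.360 (adjusted p = 0.274), and the difference between them passed (-2.10 ± 0.464, adjusted p = 0.0349). With siIrf1 it rose at 0 d (0.96 ± 0.332, adjusted p = 0.0499) and fell with TGFbeta (-1.14 ± 0.324, adjusted p = 0.0352). The 0 d call was lost without any library other than siIrf1 0 d replicate 2 and siIrf1 TGFbeta replicate 2 (0.78 to 1.20), with DESeq2 (0.96) and after removal of the trend (0.54). The call with TGFbeta was lost without either siCtr TGFbeta library (-0.99 and -1.32), siIrf1 0 d replicate 3 (-1.13) or siIrf1 TGFbeta replicate 1 (-1.05) or 2 (-1.06), and with no filter on low counts (-1.18). The interaction was lost without any library other than siCtr 0 d replicate 3, siIrf1 0 d replicate 2 and siIrf1 TGFbeta replicate 3 (-2.31 to -1.91). With the replicate numbers as a block all 3 of these calls ended: 1.00 at 0 d (adjusted p = 0.0574, in a range of 0.0426 to 0.274 over the alternatives), -1.18 with TGFbeta (0.0568, range 0.00792 to 0.256) and -2.17 for the interaction (0.0591, range 0.00763 to 0.202).

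Tnf, the archetypal inducer of NF-kappaB, did not pass 0.543 CPM in any library. Its counts were 5 in siCtr against 50 in siIrf1 at 0 d and, with TGFbeta, 1 against 7, so most of them came from siIrf1 0 d. It rose with siIrf1 at 0 d (2.30 ± 0.578, adjusted p = 0.0148, edgeR), a call lost without siCtr 0 d replicate 1 (2.77) or 3 (1.93), and in siIrf1 cells it fell with TGFbeta (-3.02 ± 0.496, adjusted p = 0.00154). Il1a, an alarmin of the interleukin 1 family, had 0, 1, 1 and 0 counts in the 4 groups in the same order and was not tested.

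Of the 5 subunit genes of NF-kappaB, Nfkb1 alone was called, in 1 comparison. Nfkb1, the precursor of p50, stood at 195 and 189 CPM in siCtr 0 d against 143, 162 and 136 in siIrf1 0 d and, with TGFbeta, 192 and 210 in siCtr against 228, 230 and 250 in siIrf1. The siIrf1 libraries were lower than siCtr without TGFbeta and higher with it. It rose with TGFbeta in siIrf1 cells (0.68 ± 0.122, adjusted p = 0.00259, edgeR). With siIrf1 at 0 d the value was -0.38 ± 0.135 (adjusted p = 0.0531), and it passed with DESeq2 (-0.38), with the trend removed (-0.86) and without siIrf1 0 d replicate 2 (-0.46) or siIrf1 TGFbeta replicate 2 (-0.38). The interaction was 0.61 ± 0.193 (adjusted p = 0.122) and passed with DESeq2 (0.60), and it was 0.99 and not called with the trend removed.

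Rela, the p65 subunit with a transactivation domain, ranged from 90.0 to 155 CPM, Nfkb2, the precursor of p52, from 85.8 to 176, and Relb from 15.4 to 27.1. Rel (c-Rel) was scarce at 0.471 to 4.81 CPM. In Nfkb2 and Rela, siIrf1 0 d replicates 1 and 3 stood alone at the bottom (87.5 and 85.8 CPM in Nfkb2, 93.9 and 90.0 in Rela), while siIrf1 0 d replicate 2 lay near siCtr 0 d (125 and 134). Neither was called in any comparison by edgeR.

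**Figure D4:**
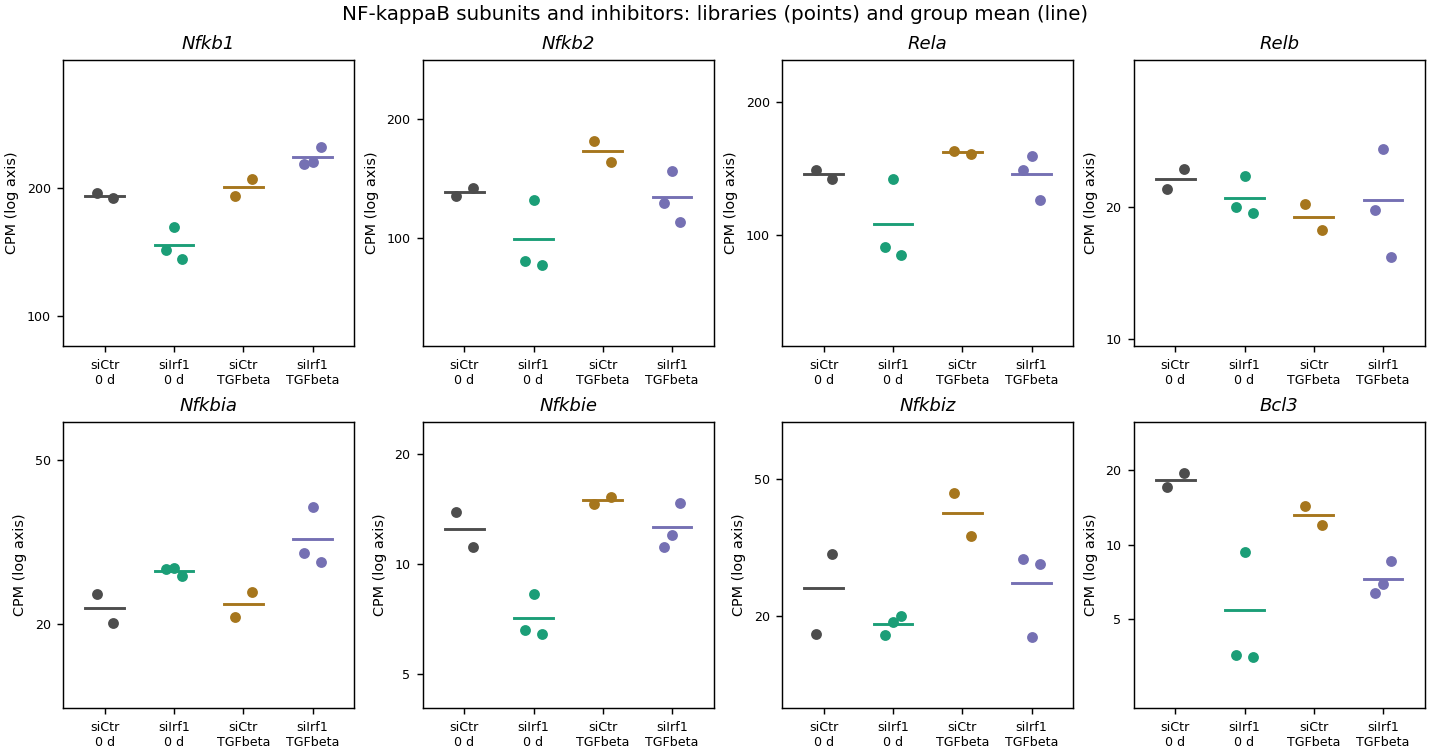
CPM of 4 NF-kappaB subunits (top) and of 4 IkB family genes (bottom) in each library (y axis, log scale) by group (x axis), points being libraries and lines group means. Nfkb1 libraries run from 136 to 250 CPM, and the group means of Bcl3, Nfkbie and Nfkbiz are lowest in siIrf1 0 d.

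Among the inhibitors, Tnfaip3 rose in 3 comparisons. Tnfaip3 encodes A20, a ubiquitin-editing enzyme that shuts the pathway down. It stood at 29.0 and 39.6 CPM in siCtr 0 d against 67.1, 56.6 and 56.8 in siIrf1 0 d and, with TGFbeta, 127 and 139 in siCtr against 124, 96.8 and 122 in siIrf1. No groups overlapped, and the TGFbeta groups were highest. It rose in siCtr cells with TGFbeta (1.95 ± 0.209, adjusted p = 7.42e-05, edgeR) and siIrf1 cells (0.93 ± 0.166, adjusted p = 0.00257), and with siIrf1 at 0 d (0.81 ± 0.190, adjusted p = 0.0109). The siIrf1 call was lost without siCtr 0 d replicate 1 (0.60). With TGFbeta the siIrf1 value was -0.22 ± 0.183 (adjusted p = 0.483). The interaction of -1.03 ± 0.262 had an adjusted p of 0.0598 and passed without siCtr 0 d replicate 3 (-1.39), with DESeq2 (-1.04), with no filter on low counts (-1.10) and with the trend removed (-0.90).

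Nfkbia encodes IkBalpha, which holds Rela dimers in the cytoplasm and is itself a target. It stood at 23.7 and 20.1 CPM in siCtr 0 d against 27.2, 27.4 and 26.2 in siIrf1 0 d and, with TGFbeta, 20.8 and 23.9 in siCtr against 29.7, 38.5 and 28.3 in siIrf1. All 6 siIrf1 libraries lay above every siCtr library, but the gene was not called: siIrf1 gave 0.30 ± 0.188 at 0 d (adjusted p = 0.238, edgeR) and 0.53 ± 0.189 with TGFbeta (adjusted p = 0.0821). Both values passed with the trend removed (0.81 and 0.65), and the latter also with DESeq2 (0.52).

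Nfkbie, encoding IkBepsilon, stood at 13.9 and 11.1 CPM in siCtr 0 d against 6.59, 8.26 and 6.44 in siIrf1 0 d and, with TGFbeta, 14.6 and 15.3 in siCtr against 11.1, 12 and 14.7 in siIrf1. The siIrf1 0 d libraries were the lowest. It fell with siIrf1 at 0 d (-0.81 ± 0.211, adjusted p = 0.0168, edgeR) and rose with TGFbeta in siIrf1 cells (0.82 ± 0.192, adjusted p = 0.0111). The 0 d call was lost without siCtr 0 d replicate 1 (-0.66), siIrf1 0 d replicate 1 (-0.76) or 3 (-0.75) and after removal of the trend (-0.19). The TGFbeta call was lost without siIrf1 0 d replicate 1 (0.77) or 3 (0.76). Bcl3, an atypical nuclear IkB that binds p50 and p52 dimers, stood at 17.1 and 19.6 CPM in siCtr 0 d against 3.58, 9.34 and 3.51 in siIrf1 0 d and, with TGFbeta, 14.4 and 12 in siCtr against 6.41, 6.94 and 8.58 in siIrf1. Every siIrf1 library lay below every siCtr library. Bcl3 fell with siIrf1 at 0 d (-1.74 ± 0.389, adjusted p = 0.00957), a value of -1.11 after removal of the trend. With TGFbeta the value was -0.86 ± 0.387 (adjusted p = 0.166), and it passed without siIrf1 0 d replicate 2 (-0.86) and was -0.47 with the trend removed. Nfkbiz, the nuclear IkBzeta, ranged from 17.4 to 45.6 CPM and was not called.

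Tnfaip2, a cytoplasmic protein first known as induced by tumour necrosis factor, stood at 27.8 and 24.3 CPM in siCtr 0 d against 27.4, 23.8 and 21.4 in siIrf1 0 d and, with TGFbeta, 27.3 and 27.7 in siCtr against 37.1, 45.2 and 34.5 in siIrf1. The siIrf1 TGFbeta libraries lay above all others, which overlapped. TGFbeta raised it in siIrf1 cells (0.69 ± 0.165, adjusted p = 0.0133, edgeR), a call lost without siIrf1 0 d replicate 3 (0.60).

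Birc2 and Birc3 encode cIAP1 and cIAP2, ubiquitin ligases of the tumour necrosis factor receptor complex that guard against cell death, and are neighbours on chromosome 9 (Birc2 at 7818226 to 7837131 and Birc3 at 7847468 to 7873205). Birc3 stood at 7.97 and 12.4 CPM in siCtr 0 d against 22.6, 18.1 and 21.2 in siIrf1 0 d and, with TGFbeta, 14.7 and 17.1 in siCtr against 24.6, 20.4 and 25.9 in siIrf1. All 6 siIrf1 libraries lay above every siCtr library. It rose with siIrf1 at 0 d (1.01 ± 0.236, adjusted p = 0.0107, edgeR), a call lost without siCtr 0 d replicate 1 (0.72). With TGFbeta the value was 0.57 ± 0.230 (adjusted p = 0.118) and passed with the trend removed (0.58). Birc2 stood at 3.30 and 11.9 CPM in siCtr 0 d against 20.3, 15.6 and 23.3 in siIrf1 0 d, and the value of 1.37 ± 0.536 did not pass (adjusted p = 0.0768). It passed without siCtr 0 d replicate 3 (2.65) or siIrf1 TGFbeta replicate 2 (1.36) and with DESeq2 (1.37), and it was 0.72 without siCtr 0 d replicate 1 and 0.68 with the trend removed. Traf1, an adaptor of the same receptor complex, ranged from 0.844 to 2.23 CPM and was not called.

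The adhesion molecules Icam1 and Vcam1, which leukocytes grip through integrins, were higher with siIrf1 in both TGFbeta states. Icam1 stood at 0.628 and 0.819 CPM in siCtr 0 d against 3.36, 3.37 and 2.77 in siIrf1 0 d and, with TGFbeta, 0.298 and 0.233 in siCtr against 1.80, 2.31 and 2.11 in siIrf1. Every siIrf1 library lay above every siCtr library. It rose with siIrf1 at 0 d (2.12 ± 0.273, adjusted p = 0.000883, edgeR) and with TGFbeta (2.93 ± 0.300, adjusted p = 0.000252). TGFbeta lowered it in siCtr cells (-1.42 ± 0.337, adjusted p = 0.00941), a call lost without siCtr 0 d replicate 3 (-1.09) or either siCtr TGFbeta library (-1.55 and -1.21). In siIrf1 cells the TGFbeta value was -0.60 ± 0.212 (adjusted p = 0.0700), which passed with the trend removed (-0.67), and the interaction was 0.81 ± 0.396 (adjusted p = 0.316), or 0.44 with the trend removed and 0.49 without siCtr 0 d replicate 3.

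Vcam1 stood at 5.18 and 6.34 CPM in siCtr 0 d against 14.2, 13.5 and 15.9 in siIrf1 0 d and, with TGFbeta, 1.79 and 3.13 in siCtr against 20.4, 18.8 and 29.6 in siIrf1. No groups overlapped, and the siIrf1 groups were above both siCtr groups. It rose with siIrf1 at 0 d (1.33 ± 0.293, adjusted p = 0.00850, edgeR) and with TGFbeta (3.24 ± 0.323, adjusted p = 0.000217). The 0 d call was lost without siCtr 0 d replicate 1 (1.18), and after removal of the length and GC trend the value was 0.10 and not called. TGFbeta lowered it in siCtr cells (-1.25 ± 0.321, adjusted p = 0.0140), a call lost without replicate 3 of siCtr 0 d (-0.97) or replicate 2 of siCtr TGFbeta (-0.80) and in a fit of the 2 groups alone (-1.24). In siIrf1 cells the value was 0.66 ± 0.247 (adjusted p = 0.0890). With the replicate numbers as a block it was 0.63 and passed (adjusted p = 0.0290, in a range of 0.0290 to 0.277 over the alternatives), and it also passed with DESeq2 (0.68), with the trend removed (0.70) and without siIrf1 TGFbeta replicate 2 (0.79). The difference between the TGFbeta effects passed (1.91 ± 0.405, adjusted p = 0.0297), and was lost without siCtr 0 d replicate 1 (2.01), any siIrf1 0 d library (1.85 to 1.98) or siCtr TGFbeta replicate 2 (1.46).

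Tlr2 and Cd14 sense bacterial lipoproteins and lipopolysaccharide at the cell surface. Tlr2 stood at 2.63 and 1.73 CPM in siCtr 0 d against 1.51, 1.09 and 1.61 in siIrf1 0 d and, with TGFbeta, 3.52 and 5.86 in siCtr against 7.70, 6.45 and 6.80 in siIrf1. No groups overlapped, and siIrf1 was lowest without TGFbeta and highest with it. It rose with TGFbeta in siIrf1 cells (2.32 ± 0.277, adjusted p = 0.000192, edgeR) and in siCtr cells (1.10 ± 0.331, adjusted p = 0.0275). The siCtr call was lost without replicate 3 of siCtr 0 d (0.94) or of siCtr TGFbeta (0.78) and in a fit of the 2 groups alone (1.10). Cd14 stood at 71.7 and 58.7 CPM in siCtr 0 d against 28.3, 21.1 and 24.5 in siIrf1 0 d and, with TGFbeta, 40.2 and 48.8 in siCtr against 30.0, 35.7 and 27.6 in siIrf1. All 6 siIrf1 libraries lay below every siCtr library. Cd14 fell with siIrf1 at 0 d (-1.40 ± 0.195, adjusted p = 0.00119), a value of -0.91 after removal of the trend that stayed called. With TGFbeta the value was -0.52 ± 0.196 (adjusted p = 0.0990), and it passed with DESeq2 (-0.53) and without siIrf1 TGFbeta replicate 2 (-0.63).

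The acute-phase genes Lcn2 and Saa3 fell with TGFbeta in both siRNA states. Lcn2, lipocalin 2, which withholds iron from bacteria, stood at 17.9 and 16.2 CPM in siCtr 0 d against 9.45, 7.42 and 8.15 in siIrf1 0 d and, with TGFbeta, 1.62 and 1.40 in siCtr against 2.66, 3.45 and 2.80 in siIrf1. No groups overlapped: siIrf1 lay below siCtr without TGFbeta and above it with TGFbeta. TGFbeta lowered it in siCtr cells (-3.49 ± 0.256, adjusted p = 7.22e-06, edgeR) and in siIrf1 cells (-1.48 ± 0.193, adjusted p = 0.000348), and the difference between these effects passed (2.00 ± 0.307, adjusted p = 0.00619). The interaction was lost without siCtr TGFbeta replicate 2 (2.03) or 3 (1.84). With siIrf1 it fell at 0 d (-1.03 ± 0.205, adjusted p = 0.00548), a call lost after removal of the trend (-0.44), and rose with TGFbeta (0.97 ± 0.228, adjusted p = 0.0150). The latter was lost without siCtr TGFbeta replicate 2 (1.04) or 3 (0.84) and in a fit of the 2 groups alone (0.97).

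Saa3, a serum amyloid A protein made outside the liver, stood at 1.88 and 1.30 CPM in siCtr 0 d against 0.377, 0.384 and 0.185 in siIrf1 0 d and, with TGFbeta, 0.0558 and 0.0666 in siCtr against 0.0295, 0.0145 and 0 in siIrf1. The groups did not overlap, and the TGFbeta groups held 5 and 2 counts. It fell with siIrf1 at 0 d (-2.32 ± 0.389, adjusted p = 0.00259, edgeR) and with TGFbeta in siCtr cells (-4.65 ± 0.558, adjusted p = 0.000157). In siIrf1 cells TGFbeta lowered it by a ratio of 21.5 (exact 95% interval 5.54 to 185, counting error only; adjusted p = 0.00114).

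The other genes of the pathway were read from lists chosen with earlier results of these data known, and counts are of genes tested. Of 17 receptors and co-receptors, 6 were called with TGFbeta in siCtr cells (5 up, 1 down), 3 in siIrf1 cells (all up), 8 with siIrf1 at 0 d (3 up, 5 down) and 6 with siIrf1 in TGFbeta (3 up, 3 down). These were 35.3%, 17.6%, 47.1% and 35.3% of those tested, beside 32.5%, 21.3%, 31.8% and 18.0% of all genes. Il1r1, the signalling receptor of interleukin 1, stood at 65.0 and 87.4 CPM in siCtr 0 d against 223, 201 and 226 in siIrf1 0 d, a rise of 1.51 ± 0.226 (adjusted p = 0.00160, edgeR) that was 0.77 after removal of the trend. Tlr4, the receptor for lipopolysaccharide, rose from 1.34 and 3.43 CPM to 17.5, 10.9 and 18.8 (2.71 ± 0.498, adjusted p = 0.00408), or by 1.22 with the trend removed. Tnfrsf1b, a receptor of tumour necrosis factor, fell with siIrf1 at 0 d (-1.25 ± 0.158, adjusted p = 0.000824, or -0.81 with the trend removed) and with TGFbeta (-0.98 ± 0.157, adjusted p = 0.00262). With TGFbeta it rose in siCtr cells (1.62 ± 0.179, adjusted p = 8.75e-05) and siIrf1 cells (1.89 ± 0.148, adjusted p = 1.44e-05). These receptors thus moved in different directions with siIrf1.

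Il1rl1, the receptor of Il33, stood at 11.6 and 22.5 CPM in siCtr 0 d against 25, 16.3 and 22.2 in siIrf1 0 d and, with TGFbeta, 140 and 145 in siCtr against 46.6, 22.5 and 44.3 in siIrf1. Its siCtr TGFbeta libraries were the highest, and Il33 was lowest in that group. It rose in siCtr cells with TGFbeta (3.06 ± 0.417, adjusted p = 0.000394, edgeR) and was lower with siIrf1 in TGFbeta (-1.92 ± 0.348, adjusted p = 0.00518). The interaction was -2.23 ± 0.506 (adjusted p = 0.0398). It was lost without siCtr 0 d replicate 1 (-1.88), any siIrf1 0 d library (-2.39 to -2.09), either siCtr TGFbeta library (-2.34 and -2.27) or siIrf1 TGFbeta replicate 3 (-2.36).

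Of 25 adaptors and kinases, 10 were called with TGFbeta in siCtr cells (5 up, 5 down), 5 in siIrf1 cells (4 up, 1 down), 9 with siIrf1 at 0 d (4 up, 5 down) and 1 with siIrf1 in TGFbeta, Ikbke. Of all genes, 32.5%, 21.3%, 31.8% and 18.0% were called in these comparisons in turn. The list lay somewhat above these shares with TGFbeta in siCtr cells and with siIrf1 at 0 d. It lay close to them with TGFbeta in siIrf1 cells and well below with siIrf1 in TGFbeta. The interaction gave 0 calls by edgeR, 3 at an unadjusted p under 0.05 and 1 by DESeq2. Irak2, a kinase below the interleukin 1 and Toll-like receptors, rose with TGFbeta in siCtr cells (1.51 ± 0.171, adjusted p = 0.000106) and siIrf1 cells (1.31 ± 0.139, adjusted p = 8.89e-05). Traf5, an adaptor of the tumour necrosis factor receptor family, fell with TGFbeta in siCtr cells (-2.68 ± 0.300, adjusted p = 9.86e-05) and siIrf1 cells (-1.30 ± 0.233, adjusted p = 0.00255). Ikbke, which encodes IKKepsilon, was higher with siIrf1 in TGFbeta (0.85 ± 0.234, adjusted p = 0.0309). Its call was lost without siCtr TGFbeta replicate 2 (0.65) or 3 (0.98) or siIrf1 0 d replicate 3 (0.85), with a stricter filter (0.80) and in a fit of the 2 groups alone (0.85).

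Of 16 further inhibitors and ubiquitin enzymes, 3 were called with TGFbeta in siCtr cells (1 up, 2 down), 3 in siIrf1 cells (2 up, 1 down) and 3 with siIrf1 at 0 d, all down. Each count was 18.8% of those tested, beside 32.5%, 21.3% and 31.8% of all genes. With siIrf1 in TGFbeta there were 0 calls by edgeR, 2 at an unadjusted p under 0.05 and 1 by DESeq2, and the interaction gave 0 by all 3 measures. Zc3h12a, the ribonuclease regnase-1, stood at 11.3 and 11.6 CPM in siCtr 0 d against 3.92, 7.53 and 4.64 in siIrf1 0 d, and at 13.0, 14.7 and 12.6 in siIrf1 TGFbeta. It rose with TGFbeta in siIrf1 cells (1.32 ± 0.239, adjusted p = 0.00268) and fell with siIrf1 at 0 d (-1.09 ± 0.260, adjusted p = 0.0122). The fall was lost without siIrf1 0 d replicate 3 (-0.99) and after removal of the trend (-0.44).

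Of 30 further targets of NF-kappaB, 18 had enough counts to be tested, and Il6, Il1b, Saa1 and Saa2 were among those that did not. TGFbeta gave 9 calls in siCtr cells (7 up, 2 down) and 5 in siIrf1 cells (4 up, 1 down). The former, 9 of the 18, stand beside 32.5% of all genes, and the latter were 27.8%, beside 21.3%. The siRNA against Irf1 gave 3 calls at 0 d (2 up, 1 down) and 10 in TGFbeta (3 up, 7 down). These were 16.7%, beside 31.8% of all genes, and 55.6%, beside 18.0%. Steap4, a metalloreductase, rose in all 4: from 2.08 and 2.88 CPM in siCtr 0 d to 18.5, 11 and 11.3 in siIrf1 0 d and 25 and 27.3 in siCtr TGFbeta, and to 159, 104 and 170 in siIrf1 TGFbeta. Its log2 fold changes were 3.39 ± 0.352 with TGFbeta in siCtr cells (adjusted p = 6.99e-05, edgeR) and 3.41 ± 0.277 in siIrf1 cells (adjusted p = 2.19e-05), and 2.44 ± 0.327 with siIrf1 at 0 d (adjusted p = 0.00111) and 2.46 ± 0.311 with TGFbeta (adjusted p = 0.000826). The 7 that fell with siIrf1 in TGFbeta included Nos2, the inducible nitric oxide synthase, which with TGFbeta stood at 2.57 and 3.30 CPM in siCtr cells against 0.0295, 0.0289 and 0 after siIrf1. With 237 counts against 3 it was lower by a ratio of 129 (exact 95% interval 43.5 to 628, counting error only; adjusted p = 0.000107). Mmp9, a matrix metalloproteinase, fell there too, from 4.35 and 4.80 CPM to 0.827, 0.463 and 0.572 (-2.90 ± 0.370, adjusted p = 0.000797). Lif, a cytokine of the interleukin 6 family, stood at 37.3 and 31.2 CPM in siCtr 0 d against 56.1, 60.4 and 55.9 in siIrf1 0 d and, with TGFbeta, 104 and 105 in siCtr against 68.5, 76.9 and 61.9 in siIrf1. It rose in siCtr cells with TGFbeta (1.61 ± 0.175, adjusted p = 8.19e-05) and with siIrf1 at 0 d (0.75 ± 0.159, adjusted p = 0.00731, or 1.18 with the trend removed). The interaction, -1.34 ± 0.221 (adjusted p = 0.00862), was the only call of this list there and was lost without siCtr TGFbeta replicate 2 (-1.44).

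Of 20 further chemokines, 10 could be tested. TGFbeta in siCtr cells gave 4 calls (3 up, 1 down), TGFbeta in siIrf1 cells 3 (1 up, 2 down), and siIrf1 4 at 0 d and 4 with TGFbeta (3 up and 1 down each). The shares called were 40.0%, 30.0%, 40.0% and 40.0%, beside 32.5%, 21.3%, 31.8% and 18.0% of all genes. Ccl17, which attracts T cells bearing Ccr4, stood at 3.26 and 3.94 CPM in siCtr 0 d against 60.5, 66.0 and 69.8 in siIrf1 0 d and, with TGFbeta, 9.86 and 11.9 in siCtr against 52.0, 84.5 and 66.4 in siIrf1. Every siIrf1 library lay far above every siCtr library, and the 2 siIrf1 groups overlapped. It rose with siIrf1 at 0 d (4.18 ± 0.265, adjusted p = 0.000116, edgeR) and with TGFbeta (2.64 ± 0.240, adjusted p = 0.000154), and with TGFbeta in siCtr cells (1.59 ± 0.252, adjusted p = 0.000888). The interaction was -1.54 ± 0.315 (adjusted p = 0.0247). It was lost without siCtr 0 d replicate 1 (-1.45), any siIrf1 0 d library (-1.60 to -1.49) or either siCtr TGFbeta library (-1.75 and -1.46). Ccl8, a monocyte attractant from the same cluster as Ccl2 and Ccl7, moved the other way with siIrf1, from 0.903 and 1.15 CPM to 0.0314, 0.271 and 0.290 at 0 d (-2.31 ± 0.523, adjusted p = 0.00981) and from 1.45 and 1.73 to 0.207, 0.159 and 0.301 with TGFbeta (-2.88 ± 0.492, adjusted p = 0.00376).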

How the data were processed

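The labels' protocols describe total RNA from transfected NMuMG/E9 cells made into stranded Illumina libraries. The authors deposited 1 table of whole-number read counts per gene, with gene lengths, for all 10 libraries. The submitters' processing notes name STAR and the build mm10 (GRCm38). How reads were counted, and whether by strand, is not given in the sources used here, so overlapping genes, antisense partners and close copies may share reads. Of the 24454 Entrez identifiers, 24374 were matched to RefSeq symbols (GRCm38.p6), 7 to GENCODE M21 and 73 to none. The table gives 27547649 to 67301646 counts per library, which limits the precision of genes with few counts.

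Counts were tested in R 4.3.3 with edgeR 4.0.16 (TMM, filterByExpr, robust quasi-likelihood F test, 1 fit of 10 libraries with a term per group, 13135 genes, 6 residual degrees of freedom, common biological coefficient of variation 0.225). Benjamini-Hochberg adjustment ran over all genes of a comparison, with a threshold of 0.05, and each SE is the size of the log2 value over the root of its F. The fit was tested on simulated data. Alternatives were scaling by RLE, omitting the low-count filter or tightening it to 2 CPM in 3 or more libraries, DESeq2 1.42.0, a fit of only the groups compared, a replicate block, removal of a trend on gene length and GC content (splines with 5 degrees of freedom, GC content known for 97.9% of genes tested), both together, leaving out each library, and leaving out siCtr 0 d replicate 1 with siIrf1 TGFbeta replicate 2.

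The 36 genes and the lists were chosen with earlier results of these data known. Members called in at least 1 comparison with a group mean of at least 1 CPM are given by library, and the rest by range and counts. Outside this rule, library values of Nfkbia, Birc2, Nfkb2 and Rela are given, chosen after their values were seen. From each list, up to 3 called genes with the smallest adjusted p per comparison could be named, and Irf1 is named as the siRNA target. Pairing by replicate number was checked through the correlation of deviations from the group means. Between siIrf1 0 d and siIrf1 TGFbeta the 3 same-numbered correlations were 0.136 to 0.448. Differently numbered libraries of these groups ran from -0.423 to 0.28, so pairing was not settled. The main fit held no pairs, and the replicate block was an alternative. The titles carry a second tag that runs with the replicate number in every group, but the labels do not say what it marks. Over the other groups the same-numbered correlations were mixed (-0.393 to 0.342). RefSeq sequences carry the build GRCm38.p6, which was used for positions.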

Additional observations from a re-analysis of the deposited data

Results flagged for a closer look

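In 4 of the 36 genes and 4 genes of the further lists, the effects of TGFbeta in siIrf1 and siCtr cells differed by the test of the difference itself (edgeR, threshold 0.05 after adjustment over 13135 genes). Among the 36, Lcn2 differed by 2.00 on the log2 scale, falling less in siIrf1 cells, and Vcam1 by 1.91, with a fall in siCtr cells and 0.66, not called, in siIrf1 cells. Cx3cl1 differed by 1.32, with a rise in siIrf1 cells, and Csf2 by -2.10, with a fall in siIrf1 cells. In the further lists Il1rl1 differed by -2.23, Ccl17 by -1.54, Lif by -1.34 and Il1rap, a co-receptor of interleukin 1, by -4.71. The last value depends on the 3 counts of Il1rap in siCtr 0 d, was -8.87 without siCtr 0 d replicate 3, and was lost with the replicate block (-4.93) and without any of 7 of the other libraries (-4.99 to -3.96). None of the 8 was called without siCtr TGFbeta replicate 2.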

How the results depend on the processing

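Single libraries moved many counts of calls. Leaving out 1 library at a time gave 11 to 17 calls of members with TGFbeta in siCtr cells, 15 to 21 in siIrf1 cells, 9 to 22 with siIrf1 at 0 d, 4 to 9 with siIrf1 in TGFbeta and 0 to 5 in the interaction. Over all genes the ranges were 2297 to 5159, 1957 to 3300, 1700 to 5192, 762 to 2978 and 122 to 1590 in the same order. Without both siCtr 0 d replicate 1 and siIrf1 TGFbeta replicate 2, all-gene calls were 4873 with TGFbeta in siIrf1 cells and 4897 with siIrf1 in TGFbeta, where members gave 12. With siIrf1 in TGFbeta, members gave 5 calls with no filter on low counts, 5 with a stricter filter and 5 in a fit of the compared groups alone. They gave 13 with the length and GC trend removed, with or without the replicate block. In these fits all genes gave 2287 of 18046, 1872 of 11227, 1581 of 12732, 3493 of 13135, and 3127 with the block. The stricter filter tested 29 members and left out Ccl7 and Csf2, both called in the main fit. In the interaction members gave 2 with the stricter filter, 11 with DESeq2 and 9 with the trend removed. All genes gave 409 of 11227 there with the stricter filter, 1171 with DESeq2 and 1145 with the trend removed. Beyond the genes left out by the filter, the cause of these shifts was not tested. A fit of the compared groups alone cannot give the interaction.

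Values that changed direction were few. Cx3cl1 with siIrf1 at 0 d was 0.05 with the trend removed and 0.03 with the replicate block added, and Cx3cl1 with TGFbeta in siCtr cells was -0.03 with the replicate block. Leaving out 1 library gave -0.36 to 0.03 for Ccl2 with siIrf1 in TGFbeta and -0.37 to 1.37 for the interaction of Il33, which was 1.59 without both libraries named above. The replicate block gave 16, 18, 20, 7 and 3 calls of members in the 5 comparisons and 4347, 3046, 5233, 2230 and 522 of all genes. With TGFbeta in siIrf1 cells, where all same-numbered correlations were positive, it changed the call of Vcam1 alone among the 36 genes. Elsewhere it ended the calls of Csf2 (siIrf1 at 0 d, siIrf1 in TGFbeta, interaction) and of the Il1rap interaction. Depth limits Tnf, Saa3, Ccl7, Csf2 and the 3 genes not tested.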
